A study of Mus musculus with 240 samples.

Results

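The genes described here are the mouse integrin subunits and laminin chains. They were taken as the protein-coding genes of the compiled count table whose symbols name an integrin alpha subunit, an integrin beta subunit or a laminin alpha, beta or gamma chain, with Itgax left aside. This gave 36 of the 34623 genes of the table, of which 22003 are protein-coding: 17 alpha subunits, 8 beta subunits and 11 laminin chains. Their level was followed in cells captured by laser from cryosections of mouse brain and labelled as oligodendrocyte precursor cells (OPCs), the glial progenitors that give rise to myelinating cells. Mutant animals, called CKO in the titles, carried the genotype Trp53-/- Nf1-/-, the loss of a tumour suppressor that guards the genome and of a brake on RAS signalling. Controls were wild-type (WT), and the captured material of both genotypes is labelled tdTpositive, after the red fluorescent protein tdTomato. All animals had received tamoxifen, and time counts the days from its start (dpi). The driver of the recombination, the strain and the age of the animals are not given in the sources used here.

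Bulk libraries were made from 10 µm sections by T7-based linear amplification of total RNA. They cover 5 WT and 7 CKO animals at 12 dpi, 5 WT and 7 CKO animals at 90 dpi, and 6 WT animals and 7 tumours at 150 dpi, 48 libraries in all from 37 animals. The tumours carried the same genotype as the CKO animals. Libraries of 1 animal were summed, so the animal is the replicate. Each of the 7 tumours had 2 libraries, as had 3 CKO animals at 90 dpi and 1 at 12 dpi, whereas each WT animal had 1. Small libraries came from CKO animals only, by PCR amplification of polyA RNA from 8 µm sections: 112 samples of 10 cells each, and 80 pool-and-split libraries, in which a larger pool of cells was divided into equal parts so that the libraries differ by technique alone. These fall into 4 sets for each time (12 or 90 dpi) and each kind, named by sex and a number.

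Integrins are receptors of 1 alpha and 1 beta subunit that span the cell membrane, bind extracellular matrix or other cells outside, and couple to the actin cytoskeleton inside through talin, kindlin and other adaptors. Laminins are cross-shaped trimers of an alpha, a beta and a gamma chain that form the sheet of the basement membrane, which in brain lies around blood vessels and under the pia. OPCs are known to use Itga6 with Itgb1 to sense laminin, and Itgav with several beta subunits to sense vitronectin, fibronectin and latent TGF-beta. Leukocytes and microglia carry their own family, built on Itgb2.

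Promoter sequences of 4 members are shown because their genes took different courses in the data: Itgb1 and Itga5 were higher in tumours, Itgav was not called different in any comparison, and Itgam is a leukocyte gene. Each is the 250 bases before the RefSeq start of the gene (GRCm38.p6), read 5′ to 3′ on the gene's strand. Capitals mark either of 2 motifs searched on both strands, the GC box with the letters GGGCGG, bound by SP-type factors, and the core of the site of PU.1, a factor of myeloid cells, with the letters GAGGAA. A match on the other strand shows as the reverse complement.
Itgb1 promoter, chr8:128685404-128685653, plus strand: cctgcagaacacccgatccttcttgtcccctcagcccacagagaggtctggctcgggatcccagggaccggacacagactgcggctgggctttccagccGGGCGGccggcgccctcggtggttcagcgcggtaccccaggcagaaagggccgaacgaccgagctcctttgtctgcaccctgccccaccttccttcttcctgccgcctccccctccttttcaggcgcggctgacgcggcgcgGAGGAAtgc
Itga5 promoter, chr15:103366792-103367041, minus strand: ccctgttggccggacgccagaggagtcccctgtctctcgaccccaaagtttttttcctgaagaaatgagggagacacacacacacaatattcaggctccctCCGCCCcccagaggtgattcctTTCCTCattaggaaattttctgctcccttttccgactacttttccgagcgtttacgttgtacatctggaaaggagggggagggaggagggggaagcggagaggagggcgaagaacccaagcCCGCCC
Itgav promoter, chr2:83724147-83724396, plus strand: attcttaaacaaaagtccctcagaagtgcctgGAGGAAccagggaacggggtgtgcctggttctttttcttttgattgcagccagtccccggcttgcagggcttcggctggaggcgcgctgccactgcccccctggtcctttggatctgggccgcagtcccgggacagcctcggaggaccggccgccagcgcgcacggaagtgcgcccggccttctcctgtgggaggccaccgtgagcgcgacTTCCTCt
Itgam promoter, chr7:128062390-128062639, plus strand: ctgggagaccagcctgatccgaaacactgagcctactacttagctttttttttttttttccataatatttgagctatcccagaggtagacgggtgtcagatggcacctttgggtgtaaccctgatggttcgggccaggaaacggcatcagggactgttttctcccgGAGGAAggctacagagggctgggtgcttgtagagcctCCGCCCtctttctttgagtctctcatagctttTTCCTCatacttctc
The Itgb1 stretch held 1 GC box and 1 PU.1-type core, and 68% of its bases were G or C. The Itga5 stretch held 2 GC boxes and 1 PU.1-type core. Itgav had 2 PU.1-type cores and no GC box, and Itgam had 1 GC box and 2 PU.1-type cores. The marked motifs do not overlap each other. RefSeq promoters were matched for 22 of the 36 members, of which 8 (36.4%) held a GC box and 11 (50%) a PU.1-type core. Among all 32851 promoters of the same length the shares were 32.7% and 23.3%. A match of letters describes the sequence and is no evidence of binding.

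Bulk libraries held between 0.0937 and 23.2 M counts (M, 1000000), with a median of 10.0 M. The 10-cell libraries held 1.64 to 6.49 M and the pool-and-split libraries 1.91 to 5.16 M counts. Levels are given as CPM, counts per 1000000 counts of the scaled total. The shallowest library was that of a WT animal at 90 dpi, where 3 counts correspond to 28.4 CPM. Gene-level counts cannot show which exons were deleted. Nf1 lay between 149 and 301 CPM in CKO animals at 12 and 90 dpi and between 252 and 357 CPM in WT animals, with 149 to 273 CPM in tumours. The Nf1 ranges did not overlap at 12 dpi (CKO up to 216 CPM, WT from 260 CPM). They overlapped at 90 dpi and between tumours and WT animals at 150 dpi. The Trp53 ranges of CKO and WT animals overlapped as well. The OPC markers were present in all groups, with a summed level of 2028 to 4014 CPM in WT animals at 150 dpi and 4743 to 12590 CPM in tumours. Markers of neurons were higher than those of OPCs in every WT animal at 150 dpi, at 7817 to 11230 CPM, so RNA of neuron markers was present in the captured material. In tumours they summed to 258 to 1464 CPM. In bulk samples a smaller number of cells of a type and less RNA per cell cannot be told apart. The labels give an animal number to each bulk sample, so p-values measure the spread between animals.

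Per kilobase of exon, Itgb8, Itgav and Itgb1 were the most abundant members in WT animals at 150 dpi, with mean levels of 37.2, 32.7 and 18.5 CPM per kb. Itga6 followed at 7.59 and the laminin gamma 1 chain Lamc1 at 6.12 CPM per kb. Most members were scarce: 16 of 36 stayed under a mean of 10 CPM in every bulk group, and 2 exceeded a mean of 100 CPM in any WT group (Itgav and Itgb8). In tumours the order changed at the top. Itgb1 came first at 85.8 CPM per kb, ahead of Itgav at 31.8, Itgb8 at 24.6 and Lamc1 at 18.8. Given the SD of Itgb8 in WT animals (412 ± 214 CPM, n = 6), its level and that of Itgav (351 ± 48.1 CPM, n = 6) did not differ beyond their spread. The filter on low counts kept 34 members for testing, and left out the beta subunit Itgb6 and the leukocyte subunit Itgad.

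Before tumours, no integrin or laminin gene was called different between mutant and WT cells by edgeR's quasi-likelihood test at a Benjamini-Hochberg adjusted p below 0.05. At 12 dpi 0 of 34 members passed, beside 0.0183% of all 16349 genes tested. At 90 dpi again 0 passed, beside 0.0489% of all genes. Both comparisons had 2 members with an unadjusted p under 0.05, as had 793 of the 16349 genes at 12 dpi and 850 at 90 dpi. DESeq2 also called 0 members. At 12 dpi the 2 members were Itgam, with a log2 difference of -0.55 ± 0.27 (SE), and the beta 7 subunit of lymphocytes Itgb7, with -2.21. At 90 dpi they were Itga9 and Lamb2. Nor did time alone bring a call: 0 members passed between 90 and 12 dpi in CKO (0% of all genes) or WT animals (0.00612%), or between 150 and 90 dpi in WT animals (0.0183%). In these comparisons 2, 1 and 2 members had an unadjusted p under 0.05, beside 696, 795 and 1350 of all 16349 genes. A change of the genotype difference from 12 to 90 dpi was called in 0 members and 0% of all genes. An unadjusted p under 0.05 was reached there by 0 members and 589 of all genes. DESeq2 called 0 members in each of these.

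Itga9, an alpha subunit that pairs with Itgb1 and binds tenascin-C and osteopontin, was among the members nearest to a call at 90 dpi. WT animals at 90 dpi had 9.48, 13.5, 13.7, 16.8 and 18.0 CPM, the lowest being 1 count in the shallowest library. The 7 CKO animals ran from 17.9 to 34.5 CPM with a median of 30.2. The groups touched at their edges. The log2 difference was 0.93 ± 0.35 (SE) with an edgeR adjusted p of 0.834. WT animals at 150 dpi spanned 10.7 to 32.5 CPM and covered most of the CKO range. Lamb2, the laminin beta 2 chain of mature vessel membranes, was singled out after its values were seen, because its groups did not overlap at 90 dpi. WT animals had 8.54, 9.31, 9.48, 11.0 and 16.2 CPM, and CKO animals 4.62 to 8.11 CPM with a median of 5.39. All 7 CKO values lay under all 5 WT values, as for 0.312% of all genes tested, and 0.447% of genes lay wholly higher. The WT value of 9.48 CPM was 1 count in the shallowest library, so its place above the CKO range is uncertain. Its log2 difference was -0.92 ± 0.34 (SE), with an adjusted p of 0.834.

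Tumours differed from earlier stages in many integrins and laminins. Against WT animals at 150 dpi, 16 of 34 members tested were higher and 2 were lower. The 16 were Itgb1, its partners Itga1, Itga2, Itga5, Itga7, Itga8 and Itga9, the leukocyte subunits Itgb2, Itgam, Itgal and Itgae, Itgb3, and the laminin chains Lama1, Lama4, Lamb1 and Lamc1, while Lama3 and Itgb8 were lower. Across all genes 24.3% were called higher and 21.9% lower. The median log2 difference of the 34 members was 1.18, against 0.06 over all genes, and 25 had a positive and 9 a negative sign. Against CKO animals at 90 dpi, 19 members were higher and 2 lower, beside 26.4% and 22.6% of all genes, with a member median of 1.24 and an all-gene median of 0.12. The 16 named above were higher in this comparison too, joined by Itga4, Itgb5 and Lamb2. Whether these 3 differ between the reference groups was not tested. Of the calls against CKO animals, that of Itga8 was lost under 10 of 44 other settings, that of Lamb2 under 8 and that of Itgb3 under 6. Without the tumour highest in fibroblast markers Itgb3 had a log2 difference of 1.14 there (adjusted p = 0.166) and Lamb2 one of 0.57 (adjusted p = 0.129). Without the tumour highest in microglia markers that of Lamb2 was 0.58 (adjusted p = 0.117). Lama3 was among the lower ones. Both comparisons use the same 7 tumours and are not independent. In neither were 12 members called.

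**Figure D1:**
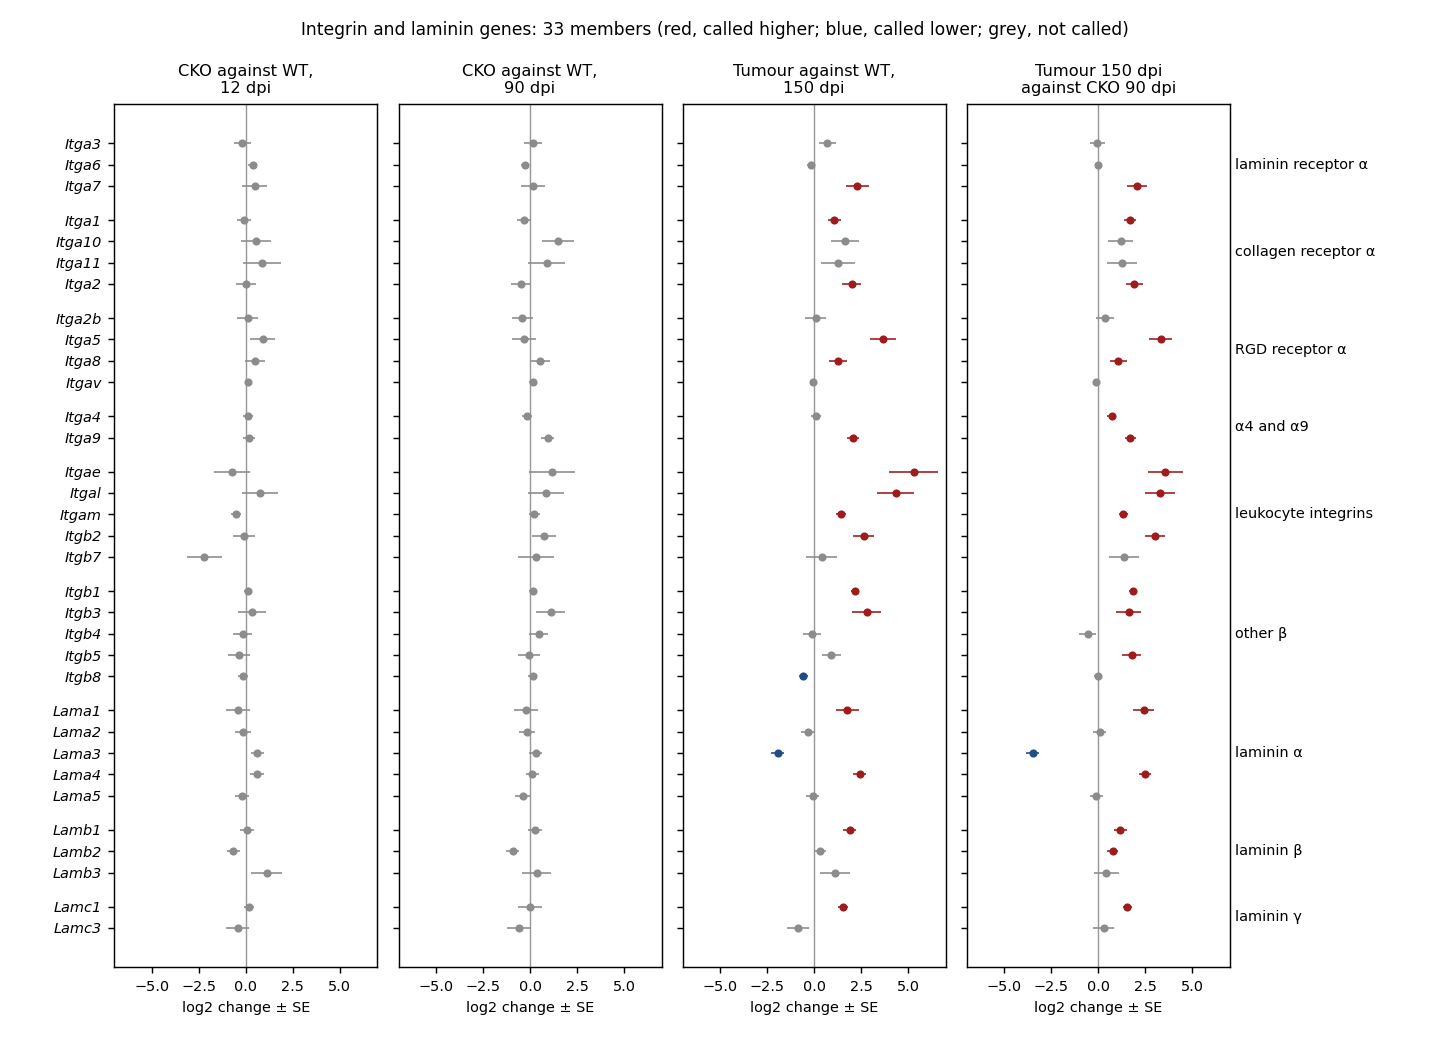
Log2 difference with its SE for 33 of the 34 members tested, grouped by role (vertical), in 4 comparisons (panels, left to right: CKO against WT at 12 and at 90 dpi, tumour against WT at 150 dpi, tumour against CKO at 90 dpi); red points were called higher and blue points lower by edgeR, grey points were not called. The left panels hold 0 called members, the right panels 18 and 20 of those drawn.

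Itgb1, the beta 1 subunit shared by the receptors for laminin, collagen and fibronectin, stood apart most clearly. At 12 dpi the WT animals had 79.8, 80.7, 85.8, 96.4 and 102 CPM, and the CKO animals 78.8 to 120 CPM with a median of 101. At 90 dpi the WT animals had 28.4, 88.6, 88.9, 96.0 and 102 CPM, the lowest being 3 counts in the shallowest library. CKO animals at 90 dpi ran from 72.9 to 164 CPM (median 87.2), and WT animals at 150 dpi from 65.8 to 88.0 CPM (median 74.1). These 5 groups overlapped one another. The 7 tumours had 198, 255, 280, 284, 372, 473 and 590 CPM. Every tumour lay above every other animal. The mean was 350 ± 138 CPM (SD, n = 7) in tumours and 75.3 ± 9.07 CPM (SD, n = 6) in WT animals at 150 dpi, a ratio of 4.65. On the log2 scale the difference was 2.19 ± 0.21 (SE; adjusted p = 1.14e-10) against WT and 1.85 ± 0.20 (adjusted p = 8.39e-10) against CKO animals at 90 dpi. Groups that do not overlap in this way, with tumours higher, made up 6.72% of all genes against WT and 6.77% against CKO animals. Among members they were Itgb1 and Lama4 against WT, and Itgb1, Lama4 and Itgb2 against CKO animals.

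The alpha subunits that pair with Itgb1 did not all move with it. Of the 3 laminin-binding subunits 1 was higher against WT, Itga7, a muscle laminin receptor, which had a low level of 2.53 to 19.5 CPM in tumours and 0 to 2.65 CPM in WT animals. Its log2 difference was 2.30 ± 0.62 (SE; adjusted p = 0.00239). Itga6, the laminin receptor subunit best known in OPCs, was not called. It had 43.1, 45.4, 56.3, 60.8 and 68.3 CPM in WT animals at 12 dpi and 48.2 to 94.5 CPM (median 68.0) in CKO animals. At 90 dpi WT animals had 47.4, 70.4, 73.4, 78.0 and 86.1 CPM and CKO animals 47.8 to 74.2 CPM (median 66.9). At 150 dpi WT animals ran from 55.5 to 74.3 CPM (median 70.3) and tumours from 32.2 to 119 CPM (median 58.0). Tumours thus lay both above and below the WT range. The log2 difference came to -0.17 ± 0.20 (SE; adjusted p = 0.516); the difference between Itga6 and Itgb1 was not tested. Itga3, which binds laminins of epithelia and vessels, had a log2 difference of 0.71 that was not called.

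Of the 4 collagen-binding subunits 2 were higher in each tumour comparison, Itga1 and Itga2. Itga1, which binds the collagen of basement membranes, had 16.4, 28.1, 33.5, 35.3 and 51.5 CPM in WT animals at 12 dpi and 0, 19.6, 25.4, 34.1 and 40.9 CPM at 90 dpi. CKO animals had 23.1 to 38.9 CPM (median 30.8) at 12 dpi and 12.9 to 43.2 CPM (median 20.1) at 90 dpi. WT animals at 150 dpi had 22.7 to 48.8 CPM (median 32.4), and the tumours 21.5, 24.8, 46.2, 60.5, 80.8, 110 and 164 CPM. Only 4 of 7 tumours lay above every WT animal at 150 dpi. The fitted log2 difference was 1.07 ± 0.35 (SE; adjusted p = 0.0126) against WT and 1.68 ± 0.34 (adjusted p = 8e-05) against CKO animals. Without the highest tumour, which also had the highest summed fibroblast markers, the first of these was 0.75 with an adjusted p of 0.0585. Itga2, known from platelets and epithelia, had 2.80 to 32.5 CPM in tumours and 0.885 to 6.43 CPM in WT animals, a log2 difference of 2.00 ± 0.52 (adjusted p = 0.0017). Itga10 and Itga11 were scarce and not called.

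Among the 4 subunits that read the RGD motif of fibronectin and vitronectin, Itga5 and Itga8 were higher and Itgav and Itga2b were not called. Itga5, the classical fibronectin receptor subunit, was singled out after its values were seen. It lay between 0.567 and 2.00 CPM in WT animals at 150 dpi and between 0.512 and 2.76 CPM in CKO animals at 90 dpi. The tumours had 1.29, 1.89, 6.97, 9.79, 10.1, 21.6 and 73.0 CPM. Thus 5 of 7 tumours lay above every WT animal at 150 dpi, and the highest exceeded the lowest 56.6 times. On the log2 scale the value was 3.65 ± 0.68 (SE; adjusted p = 3.44e-05), and 2.76 without the highest tumour (adjusted p = 0.000169), so that tumour moved the fold by more than 1.5 times. Itga8, a partner of Itgb1 that binds nephronectin, had a log2 difference of 1.25 ± 0.48 (adjusted p = 0.0316). That call was lost under 6 of 44 other settings, 5 of which leave out 1 animal, and the value ran from 1.02 to 1.67, with adjusted p-values of up to 0.0855.

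Itgav, the alpha v subunit shared by several beta subunits, was the steadiest abundant member. WT animals had 280, 282, 303, 351 and 388 CPM at 12 dpi and 218, 338, 339, 350 and 391 CPM at 90 dpi. CKO animals had 302 to 389 CPM (median 354) at 12 dpi and 335 to 426 CPM (median 371) at 90 dpi. At 150 dpi WT animals had 283 to 406 CPM (median 365) and tumours 152 to 511 CPM (median 378). All 6 groups overlapped, with the widest range in tumours. The log2 difference between tumours and WT was -0.05 ± 0.18 (SE; adjusted p = 0.863). Itgb8, which with Itgav activates latent TGF-beta in glia, had 165, 232, 235, 260 and 322 CPM in WT animals at 12 dpi and 191, 241, 246, 255 and 303 CPM at 90 dpi. CKO animals had 179 to 252 CPM (median 210) and 210 to 349 CPM (median 259) at these times. WT animals at 150 dpi ran from 226 to 706 CPM (median 304), and tumours from 156 to 436 CPM (median 250). A pair of WT animals, at 663 and 706 CPM, set the high mean of that group, and the other 4 had 226 to 331 CPM. The same pair had the highest summed OPC markers of the group (3674 and 4014 CPM) and the highest astrocyte markers (3991 and 3893 CPM). Whether these bear on Itgb8 was not tested. Its log2 difference of -0.57 ± 0.23 (adjusted p = 0.0425) was lost under 25 of 45 other settings, where it ran from -0.70 to -0.36, and it was not called against CKO animals. Of the other partners of Itgav, Itgb3, a receptor subunit of platelets and growing vessels, was higher against WT (2.79 ± 0.78, adjusted p = 0.00342), and Itgb5, a vitronectin receptor subunit, against CKO animals alone (1.78 ± 0.51, adjusted p = 0.00385; against WT 0.92, adjusted p = 0.155).

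Itga9 was higher in tumours. The tumours had 30.65, 33.2, 53.6, 81.5, 124, 157 and 186 CPM, against 10.7 to 32.5 CPM (median 27.0) in WT animals at 150 dpi, and 11.2 to 21.1 CPM (median 14.5) in CKO animals at 12 dpi. WT animals at 12 dpi had 11.1, 11.9, 14.5, 15.3 and 21.0 CPM. In 6 of 7 tumours the level exceeded that of every WT animal at 150 dpi. Means were 95.0 ± 61.6 CPM (SD, n = 7) and 23.7 ± 8.97 CPM (SD, n = 6), a ratio of 4.01. The log2 difference was 2.06 ± 0.33 (SE; adjusted p = 2.95e-06) against WT and 1.71 ± 0.30 (adjusted p = 1.12e-05) against CKO animals. Itga4, its closest relative, carried by leukocytes and some progenitors, was called against CKO animals at 90 dpi only. It had 9.34 to 25.7 CPM there, 18.4 to 34.2 CPM in WT animals at 150 dpi and 14.4 to 42.9 CPM in tumours, with log2 differences of 0.71 ± 0.24 (adjusted p = 0.0119) against CKO animals and 0.11 against WT.

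**Figure D2:**
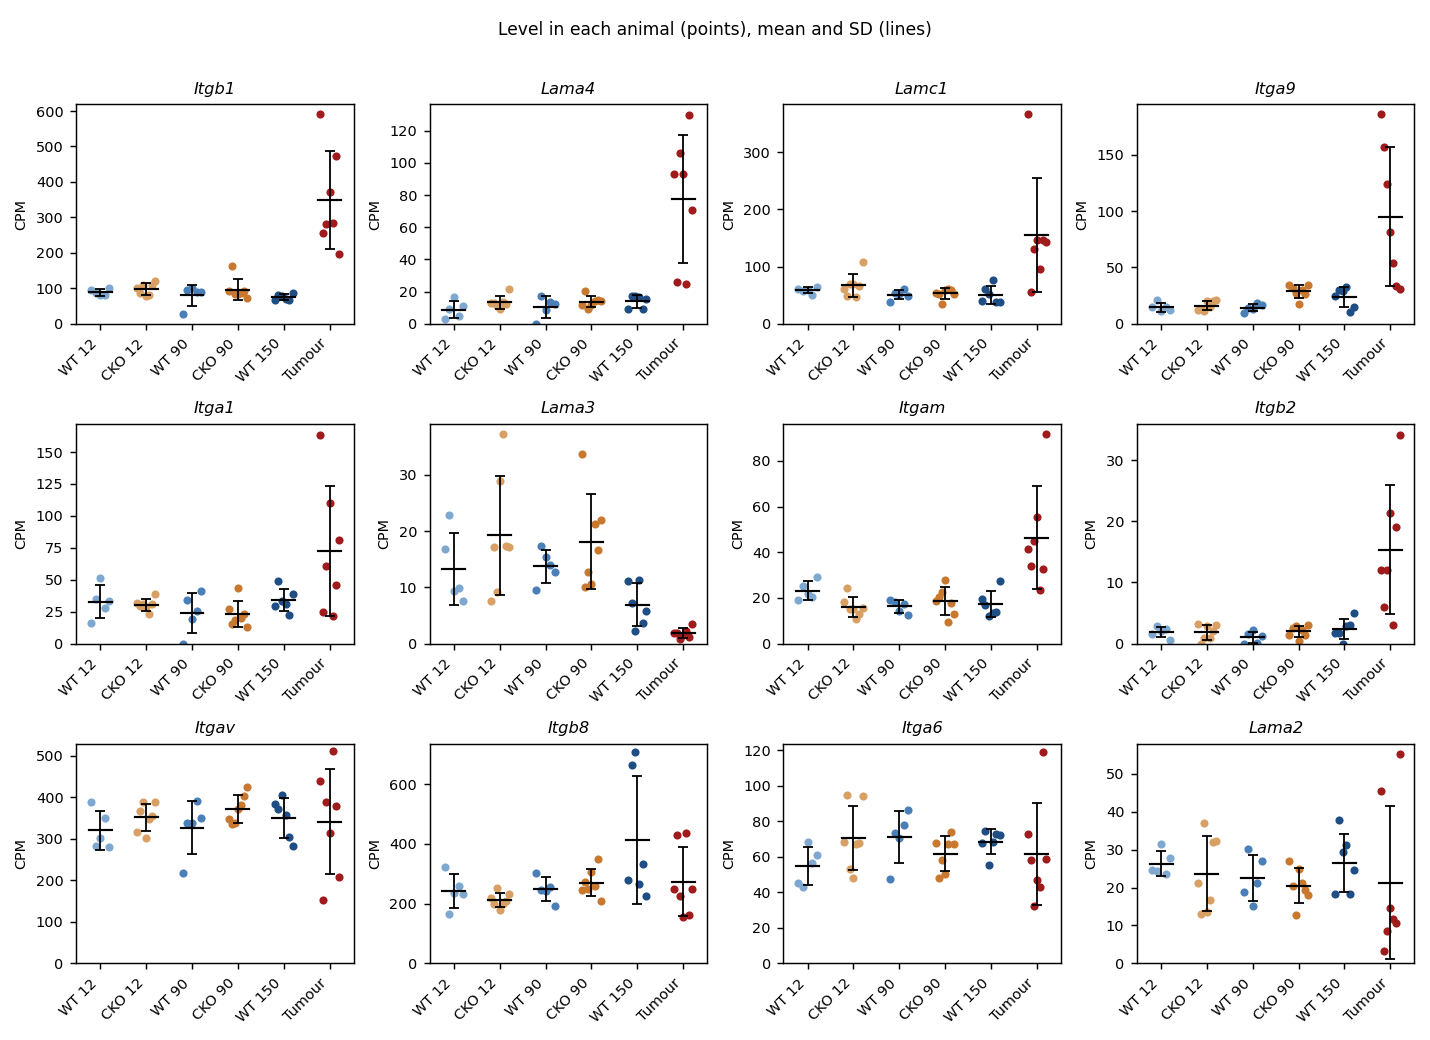
CPM (vertical axis, starting at 0) of 12 members in each animal (points) of the 6 bulk groups (horizontal axis; numbers are dpi, tumours at 150 dpi), with the mean and SD as lines. Tumours lie above all other animals for Itgb1 and Lama4, whereas all 6 groups overlap for Itgav.

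Of the 5 leukocyte subunits tested, 4 were higher in tumours against both WT and CKO animals, and Itgb7 was called in neither. Itgam, the alpha chain of complement receptor 3 on microglia and macrophages, had 18.9, 20.6, 21.8, 25.2 and 29.2 CPM in WT animals at 12 dpi and 12.3, 14.4, 17.5, 18.1 and 19.0 CPM at 90 dpi. CKO animals had 10.7 to 24.2 CPM (median 15.3) and 9.27 to 28.0 CPM (median 18.8). WT animals at 150 dpi had 11.9 to 27.5 CPM (median 15.6) and tumours 23.7, 32.6, 33.9, 41.4, 45.1, 55.7 and 92.0 CPM. In 6 of 7 tumours it exceeded every WT animal at 150 dpi. The log2 difference came to 1.41 ± 0.26 (SE; adjusted p = 2.87e-05), a ratio of means of 2.69. Itgb2, a beta subunit of leukocytes, had 0.608, 1.56, 2.01, 2.32 and 2.92 CPM in WT animals at 12 dpi. WT animals at 90 dpi had 0, 0.103, 1.24, 1.58 and 2.15 CPM. CKO animals had 0 to 3.25 CPM (median 2.00) and 0.491 to 2.98 CPM (median 2.16). At 150 dpi WT animals had 0 to 4.97 CPM (median 2.31), and tumours 3.01, 5.93, 12.0, 12.1, 19.1, 21.4 and 34.2 CPM. All tumours lay above the CKO animals at 90 dpi, and 6 of 7 above every WT animal at 150 dpi. Its log2 difference was 2.63 ± 0.58 (adjusted p = 0.000272) against WT and 3.02 ± 0.54 (adjusted p = 1.72e-05) against CKO animals. Itgal, the alpha chain of the lymphocyte receptor LFA-1, was singled out after its values were seen. It had 0 to 0.567 CPM in WT animals at 150 dpi, 0.193 to 1.81 CPM in CKO animals at 90 dpi and 0.269 to 14.4 CPM (median 4.02) in tumours, and its log2 difference against CKO animals was 3.28 ± 0.79 (adjusted p = 0.000765). Itgae, of lymphocytes and dendritic cells in tissue, had 0 to 4.43 CPM in tumours and was at 0 in 5 of 6 WT animals at 150 dpi.

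Markers of microglia and macrophages were higher in the same animals. Their summed level, over 12 genes, was 133 to 212 CPM in WT animals at 150 dpi, 123 to 234 CPM in CKO animals at 90 dpi and 332 to 1190 CPM in tumours, and 11 of the 12 were called higher against WT and 0 lower. None of the 12 was at 0 in any tumour. The tumour with the highest marker sum (1190 CPM) also had the highest Itgam, Itgb2 and Itgal, and the tumour with the lowest sum (332 CPM) had the lowest Itgam and Itgb2. T cell markers summed to 1.13 to 4.33 CPM in WT animals at 150 dpi and 2.02 to 26.4 CPM in tumours, the highest in the same tumour as for microglia markers. Of the 7 genes 4 were tested. Against WT 1 of them (Cd4) was higher, and against CKO animals 3 (Cd3d, Cd8a and Cd4), with a median log2 difference of 2.735 over the 4 there and 0.908 against WT. Cd3e, Cd3g, Lck and Cd2 were each at 0 in at least 1 tumour. The part of these cells in the leukocyte integrin levels was not tested. Without that tumour the log2 differences against WT were 1.18 for Itgam and 2.27 for Itgb2.

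**Figure D3:**
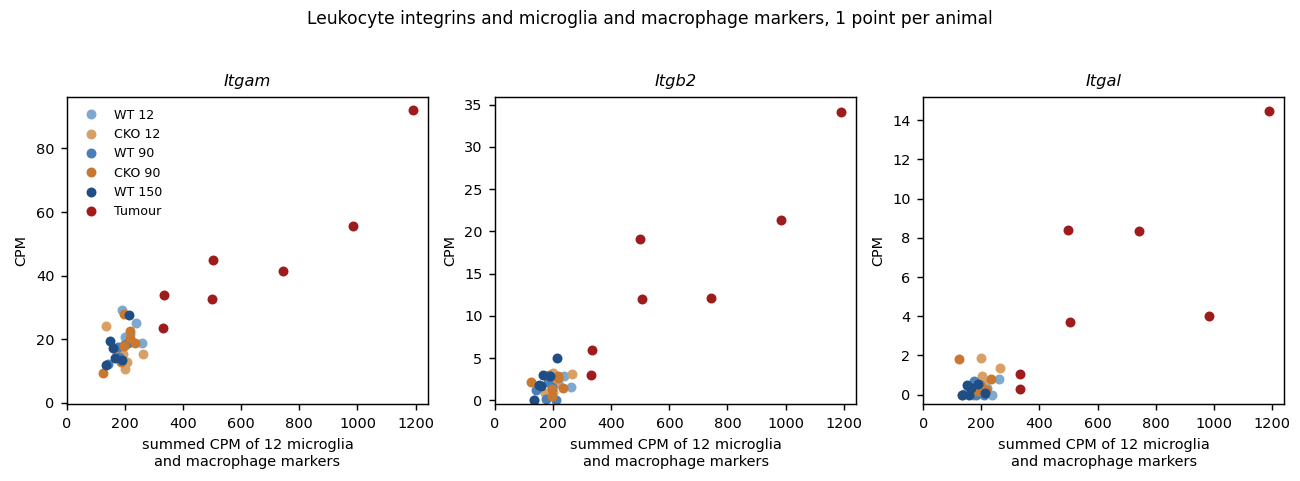
CPM of Itgam, Itgb2 and Itgal (vertical axes of the 3 panels) against the summed CPM of 12 microglia and macrophage markers (horizontal axis), 1 point per animal, coloured by group (numbers are dpi). Tumours have the highest marker sums, from 332 to 1190 CPM, and the tumour at 1190 CPM is highest in all 3 genes.

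Among laminin alpha chains, Lama4 and Lama1 were higher in tumours and Lama3 lower, while Lama2 and Lama5 were not called. Lama4, a chain of vessel basement membranes, had 3.02, 4.64, 9.00, 10.9 and 16.4 CPM in WT animals at 12 dpi and 0, 8.62, 12.5, 13.5 and 17.6 CPM at 90 dpi. CKO animals had 8.98 to 21.4 CPM (median 13.0) at 12 dpi and 9.47 to 20.3 CPM (median 13.9) at 90 dpi. WT animals at 150 dpi had 8.92 to 17.6 CPM (median 15.8), and tumours 24.7, 26.1, 70.9, 92.9, 93.1, 106 and 130 CPM. Tumours lay above all other animals, and formed a low pair and a group of 5 above 70 CPM. Means were 77.7 ± 39.9 CPM (SD, n = 7) in tumours and 14.1 ± 4.05 CPM (SD, n = 6) in WT animals, a ratio of 5.52. The fitted log2 difference was 2.43 ± 0.36 (SE; adjusted p = 6.65e-07) against WT and 2.49 ± 0.33 (adjusted p = 7.09e-08) against CKO animals. Lama1, a chain of embryonic and pial membranes, had 1.31 to 20.4 CPM in tumours and 1.02 to 5.39 CPM in WT animals, a log2 difference of 1.76 ± 0.61 (adjusted p = 0.0164).

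Lama2, the chain made by vessel-associated cells and astrocytes and lost in a congenital muscular dystrophy, had 23.5, 24.3, 24.7, 27.7 and 31.5 CPM in WT animals at 12 dpi and 15.2, 19.0, 21.1, 27.1 and 30.1 CPM at 90 dpi. CKO animals had 13.0 to 37.0 CPM (median 21.1) and 12.8 to 26.9 CPM (median 20.4). At 150 dpi WT animals had 18.3 to 37.7 CPM (median 27.0) and tumours 3.37, 8.45, 10.6, 11.8, 14.6, 45.4 and 55.2 CPM. Thus 5 tumours lay below and 2 above the whole WT range. On the log2 scale the value was -0.32 ± 0.38 (SE; adjusted p = 0.526). Lama3, a chain of epithelial laminin, was singled out after its values were seen, as the member that fell furthest. WT animals had 7.60, 9.37, 9.87, 16.8 and 22.8 CPM at 12 dpi and 9.48, 12.6, 13.9, 15.4 and 17.3 CPM at 90 dpi. CKO animals had 7.53 to 37.2 CPM (median 17.2) and 10.1 to 33.8 CPM (median 16.6). WT animals at 150 dpi had 2.27 to 11.3 CPM (median 6.52), and tumours had 0.760 to 3.47 CPM (median 1.87). All tumours lay below all CKO animals at 90 dpi, as for 10.5% of genes tested, and 6 of 7 below every WT animal at 150 dpi. Against WT, 8.96% of all genes lay wholly lower in tumours, and no member did. The log2 difference was -1.93 ± 0.34 (SE; adjusted p = 1.65e-05) against WT and -3.48 ± 0.34 (adjusted p = 1.43e-10) against CKO animals. Neuron markers were lower too, 7 of 8 against WT, and summed to 7882 to 15330 CPM in CKO animals at 90 dpi and 258 to 1464 CPM in tumours. The part of neurons in the Lama3 level was not tested.

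Of the beta and gamma chains, Lamb1 and Lamc1 were higher in both tumour comparisons. Lamc1, the gamma chain of most laminins, had 50.8, 57.3, 58.6, 60.0 and 65.1 CPM in WT animals at 12 dpi and 37.9, 49.1, 52.5, 54.2 and 60.9 CPM at 90 dpi. CKO animals had 47.5 to 109 CPM (median 66.5) and 34.6 to 61.2 CPM (median 53.9). At 150 dpi WT animals had 37.3 to 76.7 CPM (median 45.4) and tumours 54.9, 96.1, 131, 143, 146, 147 and 367 CPM. In 6 of 7 tumours the level exceeded that of every WT animal at 150 dpi. Means were 155 ± 99.4 CPM (SD, n = 7) and 50.6 ± 15.9 CPM (SD, n = 6). The log2 difference came to 1.56 ± 0.265 (adjusted p = 8.12e-06) against WT and 1.54 ± 0.25 (SE; adjusted p = 2.4e-06) against CKO animals. Lamb1, its usual partner outside muscle and kidney, had 3.40 to 8.92 CPM in WT animals at 150 dpi and 3.44 to 58.4 CPM (median 14.3) in tumours, a log2 difference of 1.88 ± 0.37 (adjusted p = 7.39e-05). Lamb2 had 2.83 to 11.7 CPM in WT animals at 150 dpi and 3.77 to 18.3 CPM in tumours. It was called against CKO animals alone (0.77 ± 0.30, adjusted p = 0.0348; against WT 0.30, adjusted p = 0.474). Lamb3 and Lamc3 were called in neither comparison.

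Markers of vessel cells were counted beside the laminins in both comparisons. Across all genes 24.3% were called higher and 21.9% lower against WT, and 26.4% and 22.6% against CKO animals. These shares apply to the calls of all marker lists. Endothelial markers summed to 233 to 329 CPM in WT animals at 150 dpi and 111 to 252 CPM in tumours, with 0 of 10 higher and 3 lower. Mural cell markers summed to 308 to 613 CPM and 122 to 308 CPM, with 1 of 7 higher and 3 lower. Against CKO animals at 90 dpi, where the sums were 145 to 241 CPM and 191.8 to 341 CPM, 2 endothelial markers (Kdr and Tie1) were higher and 0 lower. Of the mural markers 2 (Notch3 and Acta2) were higher and 1 (Rgs5) lower there, with a median log2 difference of 0.375. Fibroblast markers were higher in 4 of 5 genes and uneven, at 8.41 to 35.4 CPM in WT animals and 6.86 to 374 CPM in tumours. The tumour at 374 CPM had the highest Itgb1, Lamc1, Lamb1, Itga1, Itga5, Itga9 and Itgb3. Without it, 16 members were called against WT and 19 against CKO animals, and the log2 difference against WT was 2.04 for Itgb1, 1.24 for Lamc1 and 1.57 for Lamb1. The order of tumours differed elsewhere. The tumour next in fibroblast markers (285 CPM) had the lowest Itgb1 (198 CPM) and Itga9 (30.65 CPM). The tumour with the lowest fibroblast markers (6.86 CPM) had the highest Lama4 (130 CPM). The part of fibroblasts in these levels was not tested.

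Tumours also differed among themselves, and by member. The highest tumour exceeded the lowest 2.80 times for Itgb8, 2.98 times for Itgb1, 2.99 times for Itga4 and 3.36 times for Itgav. For Lamb1 the span was 17.0 times, for Itgb3 27.2 times, for Itgal 53.7 times and for Itga5 56.6 times. Mean levels, which set the counts behind each span, were 272 to 350 CPM in tumours for Itgb8, Itgav and Itgb1, 28.0 CPM for Itga4, 23.6 CPM for Lamb1 and 5.755 to 17.8 CPM for the other 3. The part of counting error in these spans was not tested. A pair of tumours had the lowest values of Itga5, Itga1, Lama4, Lamc1 and Itgb2, and the lowest summed microglia markers (331.7 and 334.5 CPM). The same pair had the highest Itgb8 (436 and 428 CPM), and other tumours were lowest in Itgb1 and Itga9.

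The partners of integrins and laminins were followed in 3 lists. Among 20 cytoplasmic adaptors 19 were tested, and 9 were higher and 4 lower in tumours against WT, with a median log2 difference of 0.65. The largest rises were those of Parvg, a leukocyte parvin (2.43 ± 0.50), Fermt3, the kindlin of blood cells (2.24 ± 0.59), and Pxn, paxillin (2.00 ± 0.28). The largest falls were those of Ptk2b, a kinase abundant in neurons (-5.19 ± 0.19), Tln2, the talin of brain (-1.35 ± 0.16), and Parva (-1.23 ± 0.22). Of 10 basement membrane partners 7 were higher and 2 lower, with a median of 1.05. Perlecan Hspg2 (3.90 ± 0.63), nidogen 2 Nid2 (3.82 ± 0.68) and the collagen IV chain Col4a1 (1.90 ± 0.44) rose most, and netrin 4 Ntn4 (-1.38 ± 0.27) fell. Of 15 other matrix ligands 14 were tested, and 7 were higher and 1 lower, with a median of 1.24. They included thrombospondin 1 Thbs1 (4.31 ± 0.75), tenascin-C Tnc (3.78 ± 0.77), a ligand of Itga9, and nephronectin Npnt (2.43 ± 0.50), a ligand of Itga8, while vitronectin Vtn fell (-1.23 ± 0.36), all as log2 difference ± SE. Against CKO animals at 90 dpi the counts were 11 higher and 4 lower, 7 and 2, and 9 and 1. The all-gene shares and medians given above for the tumour comparisons apply to these lists too.

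A direct test asked whether the genotype difference changed between 90 dpi, before tumours, and 150 dpi. It was called in 11 members, 10 upward and 1 downward, beside 14.2% of all genes upward and 15.8% downward. The largest upward values among abundant members were those of Lama4 (2.30, adjusted p = 0.000408) and Itgb1 (2.03, adjusted p = 1.41e-06), and the downward member was Lama3 (-2.23, adjusted p = 0.000644). Over all genes the split was 2314 upward and 2590 downward with TMM scaling, but 2932 and 2185 with RLE size factors and 3254 and 2301 with DESeq2, where the members split 12 to 1 and 14 to 1. RLE scaling moved the all-gene median of the log2 differences from 0.04 to 0.20 here, from 0.06 to 0.22 for tumours against WT and from 0.12 to 0.29 for tumours against CKO animals.

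In the small libraries of mutant cells, 12 members were found, with a count above 0, in at least 50% of libraries. They were Itgav (184 libraries), Itgam (183), Itgb1 (180), Itga1 (171), Lamb2 (168), Itga4 (152), Itga6 (147), Lama4 (122), Lamc3 (109), Lamb1 (102), Lamc1 (99) and Lama2 (99). Itgb8, which ranked among the 3 highest members per kilobase in each bulk group, was found in 84 small libraries. The small libraries carry polyA RNA amplified by PCR and the bulk libraries total RNA amplified by T7, so levels are not compared across them. Leukocyte subunits other than Itgam were rare, with Itgb2 in 12 libraries, Itgal in 11 and Itgae in 0, which allows a share of up to 1.56%. Itga5, so much higher in tumours, was found in 15 libraries and Lama3 in 17.

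Itgam was frequent but low, with a median of 4 counts, or 0.928 CPM, per small library, whereas Itgb2 was mostly at 0. The expected counts do not show whether these Itgam reads are shared with another gene. Of the 12 microglia and macrophage markers 9 were found in at least 50% of small libraries, Csf1r in 166 being the most, and 3 in fewer, Trem2 in 93, Tmem119 in 82 and Cd68 in 78. Their summed level had a median of 168 CPM in 10-cell samples at 12 dpi and 583 CPM at 90 dpi. Endothelial markers had medians of 484 to 686 CPM over the 4 groups of small libraries, and 7 of the 10 were found in at least 50% of libraries, Cldn5 in 175 being the most, and 3 in fewer, Tie1 in 87, Tek in 84 and Cdh5 in 35. The part of these cells in the member levels of small libraries was not tested.

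Detection shares, with exact Clopper-Pearson 95% intervals that cover counting error only, are given without a test between groups. Itgb1 was found in 48 of 56 10-cell samples (85.7%, 73.8 to 93.6%) at 12 dpi and in 56 of 56 (100%, 93.6 to 100%) at 90 dpi. Lamc3, a gamma chain of retina and meninges, was found in 22 of 56 (39.3%, 26.5 to 53.2%) and 44 of 56 (78.6%, 65.6 to 88.4%). In pool-and-split libraries it was found in 22 and 21 of 40, and the difference between the kinds of library was not tested. Lama4 was found in 28 and 47 of 56 10-cell samples and in 21 and 26 of 40 pool-and-split libraries. Of the 12 members, 11 were found in a larger share of 10-cell samples at 90 than at 12 dpi, the exception being Itgav, with 54 and 53 of 56. The same held for 94.25% of all 8889 genes found in at least 50% of small libraries, so the members' count is near that of genes at large. In pool-and-split libraries 4 of the 12 were found more often at 90 dpi, 6 less often and 2 equally often, among them Lamb1 (20 and 12 of 40), Lama2 (22 and 13) and Itga4 (35 and 32). There 51.2% of all these genes were found more often and 32.5% less often.

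**Figure D4:**
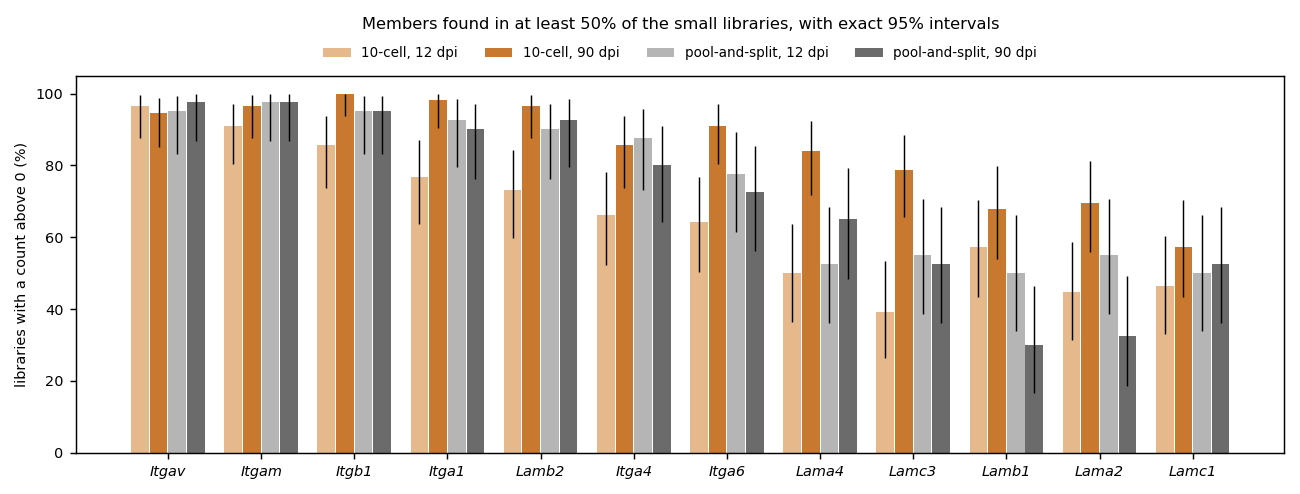
Share of small libraries with a count above 0 (vertical axis, percent) for the 12 members found in at least 50% of small libraries, by kind of library and time (bars), with exact 95% intervals (lines). Itgav and Itgam are near 95% in all 4 groups, and the 10-cell bar at 90 dpi is above the 10-cell bar at 12 dpi for 11 of the 12, as for 94.25% of all genes found that often.

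Summed over each of the 4 sets of a time, no member was called between 90 and 12 dpi by edgeR. Of 29 members tested in 10-cell sets 0 passed, beside 0% of the 14500 genes tested. There 3 members and 1034 of all genes had an unadjusted p under 0.05. Of 22 members tested in pool-and-split sets 0 passed, beside 0% of 13408 genes. There 4 members and 1050 of all genes had an unadjusted p under 0.05. Itgav had 30.5 ± 4.66 CPM (SD, n = 4 sets) at 12 dpi and 78.6 ± 15.4 CPM at 90 dpi in 10-cell sets, a log2 difference of 1.07 ± 0.41 (SE; edgeR adjusted p = 0.664). Lamb1 had 106 ± 74.2 CPM and 19.7 ± 12.7 CPM there, a log2 difference of -2.75 ± 0.86 (adjusted p = 0.630). DESeq2 called Lamb1 in the 10-cell sets (-2.77, adjusted p = 0.029), and Itga7 (6.09, adjusted p = 1.52e-06) and Itga6 (-2.45, adjusted p = 0.049) in the pool-and-split sets, beside 1.88% and 3.90% of all genes tested. In pool-and-split sets Itga7 had a mean of only 0.0854 CPM at 12 dpi, found in 4 of 40 libraries, and 7.07 CPM at 90 dpi. In 10-cell sets its sign was opposite, with means of 16.9 and 6.66 CPM (log2 difference -1.62, edgeR adjusted p = 0.825). Single libraries carried much of such sums: 47.8% of the summed Lama4 CPM of the 10-cell samples at 12 dpi came from 1 library, and 63.0% of that of Itga4 in pool-and-split libraries at 90 dpi. For Itga6 in pool-and-split libraries at 12 dpi, 1 library carried 49.45% of the summed CPM.

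Spread between libraries was compared within each set, since 10-cell samples hold differences between cells that pool-and-split libraries average out. Absolute deviations of log2(CPM + 1) from the set median were tested with limma. The test takes single libraries as replicates although they share animals and sets, so its p-values are too small. For the counts of sets with a larger SD, sets of both kinds were matched by sex and number. The labels do not say whether matched sets share animals. No member passed at 12 dpi (0.0252% of 7926 genes called) or at 90 dpi (0.587% of 9704). Of 9 members tested at 12 dpi, Itgav and Itga1 had an unadjusted p under 0.05, and of 13 tested at 90 dpi Lamb1, Lama4 and Itgb1 had. Among all genes tested 751 at 12 dpi and 1341 at 90 dpi had such a p. The Itga1 deviation was larger in 10-cell samples by 1.335 ± 0.36 (SE; limma adjusted p = 0.171), with a larger SD in 4 of 4 sets. At 90 dpi Lamb1 was larger by 1.07 ± 0.34 (adjusted p = 0.0976) and Lama4 by 0.79 ± 0.31 (adjusted p = 0.217), each in 4 of 4 sets. A larger SD in 4 of 4 sets was also seen for Itgav, Itga4, Itgam and Lamb2 at 12 dpi and for Itgam at 90 dpi. How many of all genes tested show the same was not counted, so it cannot be read as particular to these members. The median difference over all genes was 0.163 at 12 dpi and -0.06 at 90 dpi. Itgb1 at 90 dpi had the opposite sign to Lamb1, -0.46 ± 0.23 (adjusted p = 0.361), with a larger SD in 10-cell samples in 0 of 4 sets.

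**Figure D5:**
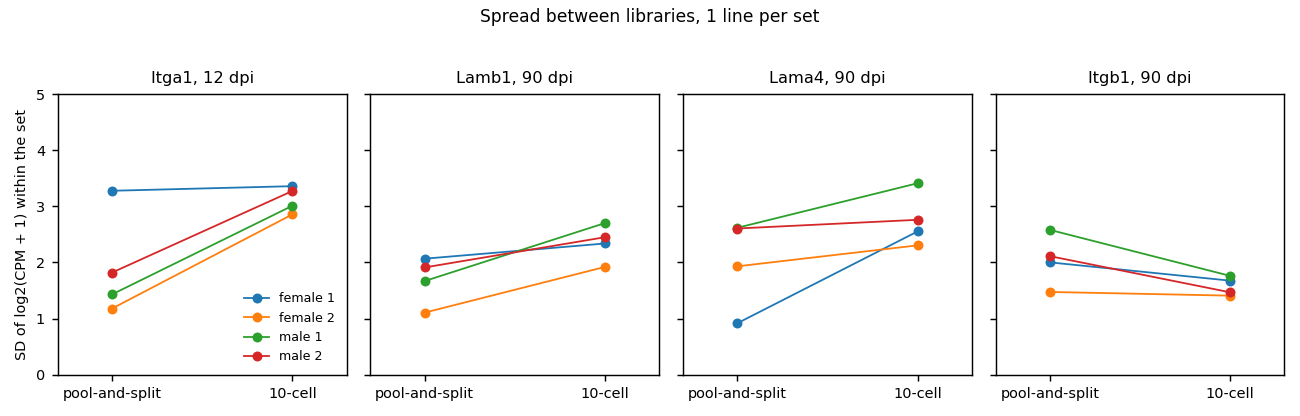
SD of log2(CPM + 1) within a set (vertical axis) for pool-and-split and 10-cell libraries (horizontal axis), 1 line per set, for Itga1 at 12 dpi and Lamb1, Lama4 and Itgb1 at 90 dpi. Lines join sets of the same sex and number, which the labels do not say share animals. Lines rise in 4 of 4 sets for Itga1, Lamb1 and Lama4 and fall in 4 of 4 for Itgb1.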

How the data were processed

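Expression was measured by RNA-seq of laser-captured brain cells: 48 bulk libraries of 37 animals, 112 10-cell and 80 pool-and-split libraries. The authors deposited 1 table of expected counts per gene and library, made with RSEM and Bowtie2 against GRCm38, per the submitters' processing notes; versions and the roles of these tools are not given in the sources used here. RSEM shares reads between near-identical genes, and laser capture with amplification adds noise to scarce genes. The 92 spike-ins were left out. Libraries of 1 animal were summed and rounded.

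All 37 animals entered 1 fit with edgeR 4.0.16 (R 4.3.3): TMM scaling, filterByExpr with a minimum count of 10 and a minimum total of 15, group and sex as terms, quasi-likelihood F test, Benjamini-Hochberg adjusted p below 0.05 over all genes tested. Log2 differences use edgeR's default prior count, and the mean log2 CPM that ranks abundance uses a prior count of 2. The SE of an edgeR log2 difference was derived from the test, as its absolute value divided by the square root of F. CPM is counts per 1000000 counts of an animal's TMM-scaled total (of the plain total in small libraries). Small libraries were summed by set for the same test, and their spread was tested with limma 3.58.1 on log2(CPM + 1) for genes found in at least 50% of libraries. DESeq2 1.42.0, RLE size factors, other filters, no sex term, the deepest library per animal, a robust fit, the compared groups alone and leaving out each animal were alternatives. Scripts were tested on simulated data.

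The members, marker and pathway lists were chosen with earlier results of these data known. Values per animal are given for members called before tumours, per tumour comparison for the 4 largest called rises and falls above the median abundance of all genes tested, and for Itgb1, Itga6, Itgav, Itgb8, Itgam, Itgb2, Lama2, Lama4 and Lamc1; of each pathway list the 3 largest called rises and falls are named; some of these items are not reported here.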

Additional observations from a re-analysis of the deposited data

Results flagged for a closer look

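In 84 levels (14 members in 6 bulk groups), 9 had an animal that stood far from the rest of its group. The rule is set to flag about 1 in 20 among independent, normally distributed levels. Here the levels share animals, and Itga5, Itgal and Lama3 were added after their values were seen, so the 9 cannot be set against that share. For Itgb1, a CKO animal at 90 dpi had 163.9 CPM (next 93.6), and the WT animal at 90 dpi with the shallowest library had 28.4 CPM (next 88.6). That CKO animal also had the highest summed neuron markers of its group, 15330 CPM, and astrocyte markers of 6926 CPM (the others 2329 to 3300 CPM). For Lamc1, the tumour with the highest fibroblast markers had 366.9 CPM (next 147.0), a CKO animal at 12 dpi 108.6 CPM (next 70.3) and a CKO animal at 90 dpi only 34.6 CPM (next 51.6). The same CKO animal at 12 dpi had the highest Lama4, 21.4 CPM (next 13.3). It also had the highest summed fibroblast (120 CPM, next 26.3), mural (473.5 CPM, next 400.7) and endothelial markers (347.6 CPM, next 238.7) of its group, and their part was not tested. For Itga5, the same tumour had 73.0 CPM (next 21.6). For Itga6, a WT animal at 150 dpi had 55.5 CPM (next 67.8), and for Itgal a CKO animal at 90 dpi had 1.81 CPM (next 0.798).

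In 11 members the difference between mutant and WT cells changed from 90 to 150 dpi by a test of the change itself (edgeR). The log2 change was 3.98 for Itga5 (adjusted p = 0.000916), 3.48 for Itgal (0.0433), 2.50 for Itga2 (0.00738), 2.30 for Lama4 (0.000408) and 2.03 for Itgb1 (1.41e-06). It was 1.62 for Lamb1 (adjusted p = 0.0163), 1.56 for Lamc1 (0.00142), 1.40 for Itga1 (0.0341), 1.22 for Lamb2 (0.047), 1.19 for Itgam (0.0151) and -2.23 for Lama3 (0.000644).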

How the results depend on the processing

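Requiring a mean of 10 CPM left 13 members to test, of which 8 were called in tumours against WT and 9 against CKO animals, beside 52.5% and 56.0% of all 10362 genes. DESeq2 called 1 member between times in the 10-cell sets and 2 in the pool-and-split sets, where edgeR called 0, beside 1.88% and 3.90% of all genes. Leaving out each animal in turn gave 16 to 19 called members in tumours against WT, 17 to 21 against CKO animals and 8 to 14 for the change of the genotype difference from 90 to 150 dpi; the other comparisons stayed at 0 to 0. Of 50 called member results, 38 kept their call under each alternative that gave a value for them, 42 to 45 of the 45 run (37 without 1 animal and 8 others), and 0 of the 50 reversed. The call of Itgb8 was lost under 25, that of Lamb2 in the change of the genotype difference under 22, and that of Itgal there under 15. Set numbers recur at both times but did not pair the sets: same-labelled sets correlated by -0.0321 to 0.0160 in 10-cell and by -0.0325 to -0.00578 in pool-and-split libraries, and 0 of 4 correlated best with their own label in either kind. With the label as a replicate block, 0 members were called in both set comparisons and in the spread tests. Depth limits scarce members: 3 counts were 28.4 CPM in the shallowest animal.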
